A study of Mus musculus with 12 samples.

Results

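The genes described here are 10 transcription factors that specify neural crest cells, namely Sox10, Foxd3, Tfap2a, Tfap2b, Sox9, Sox5, Ets1, Snai1, Zeb2 and Pax3. They were chosen by gene symbol from the 24421 rows of the deposited count table. All 10 had a row, and all 10 passed the filter on low counts, as did 14810 rows in all. RNA was sequenced from C57Bl/6 mouse embryos whose Eftud2 gene, which encodes a spliceosomal GTPase, was altered in a neural crest-specific manner. Per the labels, the 4 groups of 3 libraries were Eftud2+/- embryos (heterozygous, called control) and Eftud2-/- embryos (homozygous, called mutant), each at embryonic day 9.0 (E9.0) and 9.5 (E9.5), all untreated. The controls therefore carried an altered Eftud2 allele as well. The labels name neither the driver of the alteration nor the number of embryos in a library, and they do not say whether the 3 libraries of a group came from separate litters, so the p-values measure the spread between these libraries.

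Neural crest cells arise at the border of the neural plate, leave the dorsal neural tube by an epithelial-to-mesenchymal transition, and form the facial skeleton, the glia and many neurons of the cranial ganglia, and pigment cells. Tfap2a, Tfap2b and Pax3 act from the border stage onwards. Foxd3, Sox9, Snai1 and Ets1 mark the premigratory crest, and Sox10 follows in migrating cells and stays on in glia. In the head, crest that enters the pharyngeal arches normally switches off Sox10 and Foxd3 as it becomes mesenchyme, whereas the crest that joins the cranial ganglia keeps Sox10.

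The libraries held between 13914543 and 31172708 counts. The row of the 45S ribosomal RNA precursor, Rn45s, took 37.4% of the counts in heterozygous E9.0 replicate 1 and between 4.40% and 16.2% in the other 11 libraries. Levels are given as CPM, counts relative to a library size scaled with TMM factors. Eftud2 itself was at 302, 275 and 279 CPM in heterozygous and 236, 235 and 232 CPM in homozygous E9.0 libraries, which gave -0.29 ± 0.05 as log2 fold change and SE (adjusted p 0.0193 by edgeR; this call was lost without heterozygous replicate 1 or homozygous replicate 1 or 3). Scaled by total counts alone, the E9.0 value was -0.082 (adjusted p 0.751 by edgeR), and with only these 2 groups fitted -0.28 (adjusted p 0.141 by edgeR). At E9.5 it was at 248, 255 and 265 against 226, 221 and 226 CPM (-0.19 ± 0.05, adjusted p 0.0906 by edgeR and 0.0134 by DESeq2). The labels give the tissue both as neural crest cells and as cranial nerve ganglia, while the protocol speaks of heads. Genes of other cells were abundant: Sox2, a neural progenitor gene, was at 161 to 204 CPM over the 12 libraries, and the embryonic globin gene Hbb-y at 111 to 2126 CPM. The libraries thus held far more than crest cells, and in such bulk RNA fewer crest cells and less RNA per crest cell cannot be told apart.

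RefSeq promoter sequence (GRCm38.p6) was matched for 6 of the 10 members, Foxd3, Snai1, Sox5, Tfap2a, Tfap2b and Zeb2. Below are the 250 bases before the RefSeq start of Foxd3 and Tfap2b, which both fell at E9.5 in the results that follow, and of Snai1, which did not pass the test. None of these 3 windows held an annotated exon base in GENCODE M21. The Foxd3 and Snai1 windows end just before the start of their GENCODE gene models. The Tfap2b window instead lies inside its gene model, which starts at base 19208914, so it is not upstream of the gene in that annotation. Both strands were searched for GCCNNNGGC (the AP-2 factors), ACAAAG (Sox factors), CAGGTG (Snai1 and Zeb2), CCGGAAGT (Ets factors), TGTTTAC (Fox factors), TAATTA (homeodomains), TATAAA and CCAAT. Capitals mark every match.
Foxd3, chr4:99656049-99656298, plus strand: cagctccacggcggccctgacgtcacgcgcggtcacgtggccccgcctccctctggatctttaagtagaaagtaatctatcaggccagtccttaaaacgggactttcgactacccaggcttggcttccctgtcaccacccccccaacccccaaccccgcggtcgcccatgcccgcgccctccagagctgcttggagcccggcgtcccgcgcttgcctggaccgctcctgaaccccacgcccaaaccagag
Tfap2b, chr1:19211804-19212053, plus strand: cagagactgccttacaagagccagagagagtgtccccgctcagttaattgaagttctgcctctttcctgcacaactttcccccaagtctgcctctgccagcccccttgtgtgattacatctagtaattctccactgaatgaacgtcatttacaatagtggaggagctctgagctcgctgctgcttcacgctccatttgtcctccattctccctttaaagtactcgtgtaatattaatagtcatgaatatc
Snai1, chr2:167537945-167538194, plus strand: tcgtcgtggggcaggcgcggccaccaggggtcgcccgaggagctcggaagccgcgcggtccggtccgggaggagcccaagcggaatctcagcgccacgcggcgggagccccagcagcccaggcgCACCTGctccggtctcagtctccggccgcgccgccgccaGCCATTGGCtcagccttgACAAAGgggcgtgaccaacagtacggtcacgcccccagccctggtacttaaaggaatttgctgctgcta
The Foxd3 and Tfap2b windows held no match to these 8 sets of letters, although they differed in composition, with 65.6% and 46.4% G and C against a median of 52.4% over 32851 promoters. The Snai1 window, at 70.0% G and C, held CACCTG, which is CAGGTG on the other strand, starting 126 bases before the start. It also held an AP-2 match 87 bases before the start, with a CCAAT match on the other strand lying inside it, and ACAAAG 69 bases before the start. Over all promoters of the same length, 13.7% held the AP-2 letters, 16.5% ACAAAG, 17.2% CAGGTG and 33.8% CCAAT. These matches describe the letters only.

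In homozygous embryos the crest factors did not move as a block. At E9.0, 1 of the 10 members, Tfap2b, fell past the threshold (edgeR adjusted p under 0.05), where 0.155% of all tested genes fell. At E9.5, 4 members fell, Tfap2b, Sox10, Foxd3 and Pax3, by between 1.57-fold and 3.47-fold, where 0.702% of all tested genes fell. No member rose at either stage by this test, where 0.432% and 1.19% of all genes did; without adjustment, 4 members had a p under 0.05 at each stage, where 13.3% and 13.4% of all genes did. The other 6 members, Tfap2a, Sox9, Sox5, Snai1, Zeb2 and Ets1, did not pass the test at either stage. The median over the 10 members was -0.22 (E9.0) and -0.16 (E9.5) on the log2 scale, against -0.0043 and -0.0026 for all tested genes, and 9 of 10 were below 0 at each stage. With total counts as the only scaling, Sox9, Ets1 and Pax3 were above 0 at E9.0. All 3 homozygous libraries lay below all 3 heterozygous ones for 5 members at E9.0 (8.2% of all tested genes did) and for 4 at E9.5 (9.47%).

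**Figure D1:**
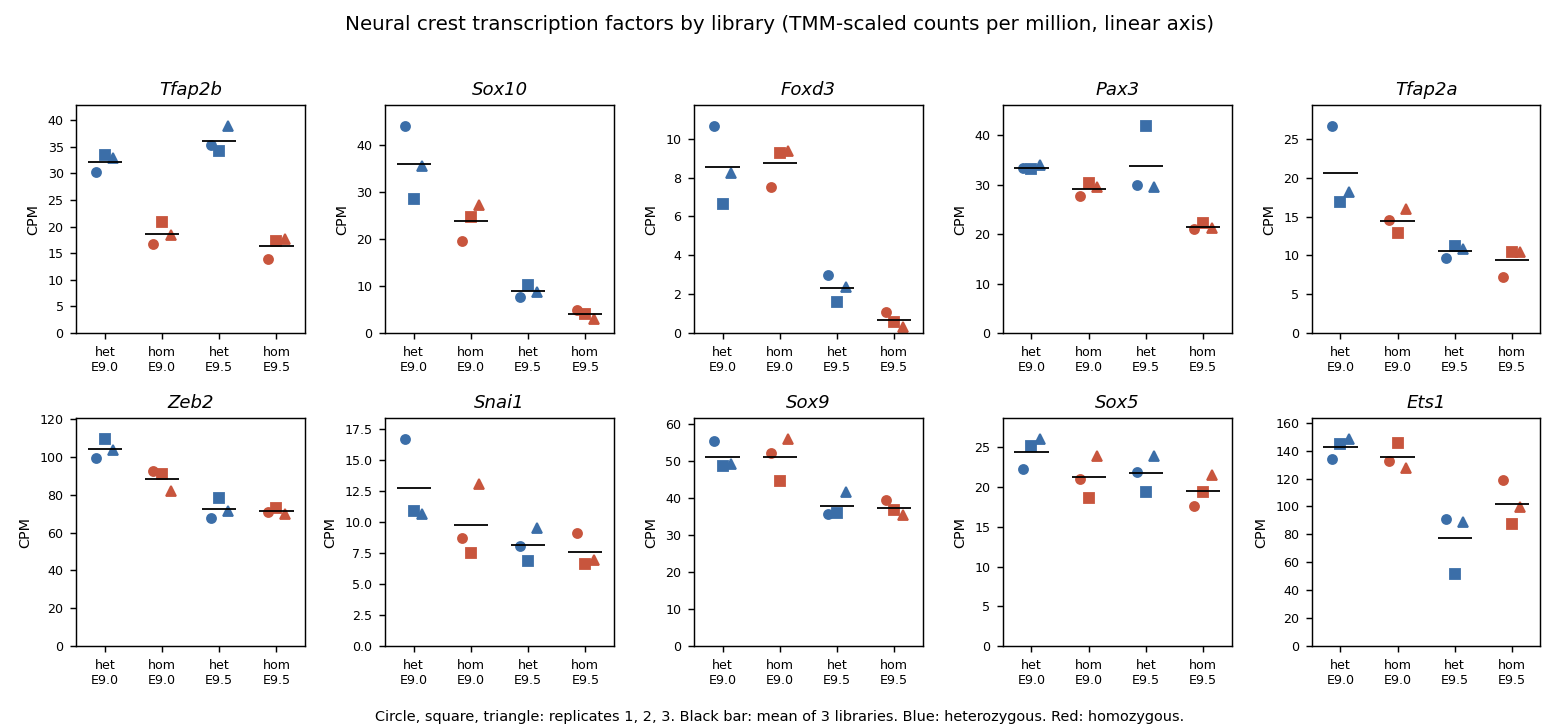
Level of each of the 10 crest factors in every library, in CPM on a linear axis, by genotype (het, heterozygous; hom, homozygous) and stage; symbols are replicates and bars are means of 3 libraries. Tfap2b was lower in all homozygous libraries at both stages, and Sox10 and Foxd3 were lower in both genotypes at E9.5 than at E9.0.

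The AP-2 factors Tfap2a and Tfap2b bind the same GC-rich site and share much of their early crest function. Tfap2b lies on the plus strand at chr1:19208914-19238576 and Tfap2a on the minus strand at chr13:40715302-40738376 (GRCm38). Tfap2b was at 30.2, 33.5 and 32.9 CPM in heterozygous E9.0 libraries and at 16.7, 20.9 and 18.4 CPM in homozygous ones. At E9.5 it was at 35.3, 34.3 and 38.9 CPM in heterozygous and 14.0, 17.2 and 17.7 CPM in homozygous libraries. No homozygous library reached the lowest heterozygous library at either stage. The E9.0 mean fell from 32.2 ± 1.71 to 18.7 ± 2.09 CPM (SD, n = 3 each), or -0.78 ± 0.10 in log2 fold change (adjusted p 7.7e-04 by edgeR). At E9.5 it fell from 36.2 ± 2.42 to 16.3 ± 2.03 CPM (SD, n = 3 each), or -1.15 ± 0.10 in log2 fold change (adjusted p 2.0e-05 by edgeR), a fitted 2.22-fold. Leaving out any 1 library of the stage kept both calls. With total counts as the only scaling, which shifted the median of all genes by 0.19 at E9.0, the E9.0 value was -0.59 (adjusted p 0.108 by edgeR).

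Its paralog Tfap2a had a different profile. It was at 26.6, 16.9 and 18.2 CPM in heterozygous and 14.5, 12.8 and 16.0 CPM in homozygous E9.0 libraries, and at 9.73, 11.2 and 10.8 CPM against 7.25, 10.5 and 10.4 CPM at E9.5. The groups did not overlap at E9.0 and overlapped at E9.5. The log2 difference was -0.50 ± 0.17 at E9.0 (adjusted p 0.229 by edgeR) and -0.17 ± 0.17 at E9.5 (adjusted p 0.766 by edgeR), with 95% intervals of -0.86 to -0.14 and -0.53 to 0.19. The E9.0 value rested partly on heterozygous replicate 1, the library with the most Rn45s, without which it was -0.29 (adjusted p 0.404 by edgeR); the E9.5 value was -0.011 without homozygous replicate 1. Gm26688, an antisense gene that overlaps Tfap2a by 380 exon bases, had 88 counts over all 12 libraries.

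Sox10 is an HMG-box factor that keeps crest cells multipotent and directs the glial and pigment lineages; it lies on the minus strand at chr15:79154908-79165240. In heterozygous E9.0 libraries it was at 43.9, 28.4 and 35.4 CPM, and in homozygous ones at 19.5, 24.5 and 27.2 CPM, so that the groups came close without overlapping. At E9.5 it was at 7.65, 10.2 and 8.67 CPM in heterozygous and 4.96, 4.08 and 2.89 CPM in homozygous libraries, again without overlap. Sox10 fell at E9.5 from 8.83 ± 1.27 to 3.98 ± 1.04 CPM (SD, n = 3 each), with a fitted log2 fold change of -1.14 ± 0.21, or 2.21-fold (adjusted p 0.0148 by edgeR). The E9.0 difference of -0.59 ± 0.18 did not pass the threshold over all genes (adjusted p 0.195 by edgeR). The E9.5 call was lost without heterozygous replicate 2 (-1.02, adjusted p 0.0555 by edgeR) or homozygous replicate 2 (-1.16, adjusted p 0.0606 by edgeR).

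Sox9, the SoxE factor that precedes Sox10 in premigratory crest and later drives cartilage, differed by little. It was at 55.6, 48.8 and 49.2 CPM in heterozygous and 52.3, 44.7 and 56.0 CPM in homozygous E9.0 libraries, and at 35.7, 36.0 and 41.7 against 39.5, 36.8 and 35.5 CPM at E9.5. The log2 differences were -0.0039 ± 0.09 at E9.0 (95% interval -0.19 to 0.19, adjusted p 0.990 by edgeR) and -0.02 ± 0.09 at E9.5 (-0.20 to 0.16, adjusted p 0.967 by edgeR). The E9.0 groups interleaved closely. With 6 other choices of scaling, filter or fitted groups, among them RLE and upper-quartile scaling, the difference was above 0. It was also above 0 without heterozygous replicate 1 (0.054) or homozygous replicate 2 (0.084). Sox5, a SoxD factor that works with Sox9 in cartilage, lay between 18.7 and 26.1 CPM at E9.0 and between 17.6 and 23.9 CPM at E9.5 over both genotypes. Its groups overlapped at both stages, with log2 differences of -0.21 ± 0.11 (adjusted p 0.425 by edgeR) and -0.16 ± 0.11 (adjusted p 0.602 by edgeR). Leaving out 1 library moved them to -0.13 without homozygous E9.0 replicate 2, -0.083 without homozygous E9.5 replicate 1 and -0.080 without heterozygous E9.5 replicate 3.

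Foxd3 is a forkhead factor of premigratory crest that helps to maintain the progenitor state; it is a gene of 1 exon at chr4:99656299-99658622 on the plus strand. At E9.0 it was at 10.6, 6.65 and 8.26 CPM in heterozygous and 7.52, 9.28 and 9.39 CPM in homozygous libraries, and the groups overlapped. Its E9.5 levels were 2.99, 1.58 and 2.38 CPM in heterozygous libraries (98, 54 and 67 counts) and 1.08, 0.58 and 0.30 CPM in homozygous ones (32, 19 and 8 counts). All 3 homozygous E9.5 libraries were below every other library. The mean fell at E9.5 from 2.32 ± 0.704 to 0.654 ± 0.394 CPM (SD, n = 3 each), with a fitted log2 fold change of -1.80 ± 0.34, or 3.47-fold (adjusted p 0.0148 by edgeR). The E9.0 difference was 0.05 ± 0.25 (adjusted p 0.951 by edgeR), with a 95% interval of -0.48 to 0.58. The E9.5 call was lost without homozygous replicate 2 (-1.70, adjusted p 0.0866 by edgeR) or homozygous replicate 3 (-1.48, adjusted p 0.0518 by edgeR), and with only the compared groups fitted (adjusted p 0.0624 by edgeR).

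Pax3, a paired-box factor of the dorsal neural tube, the crest and the somite, lies on the minus strand at chr1:78101267-78197134. It was at 33.4, 33.1 and 33.9 CPM in heterozygous E9.0 libraries and at 27.8, 30.4 and 29.5 CPM in homozygous ones. By E9.5 the values were 29.9, 41.9 and 29.5 CPM in heterozygous and 21.1, 22.3 and 21.3 CPM in homozygous libraries. The homozygous libraries lay below the heterozygous ones at both stages, and heterozygous E9.5 replicate 2 stood above the rest. Pax3 fell 1.57-fold at E9.5 (log2 fold change -0.65 ± 0.11, adjusted p 0.00544 by edgeR), and the value was -0.46 without heterozygous replicate 2 (adjusted p 0.00505 by edgeR). The call was lost with only the compared groups fitted (adjusted p 0.0649 by edgeR). The E9.0 difference of -0.19 ± 0.11 did not pass (adjusted p 0.465 by edgeR). In the same replicate 2 the summed level of 5 dorsal neural tube genes (Wnt1, Wnt3a, Lmx1a, Gdf7 and Rspo1) was 62.3 CPM, against 43.9 and 47.0 CPM in the other heterozygous E9.5 libraries and 34.7 to 36.7 CPM in the homozygous ones. The part of dorsal neural tube cells in the Pax3 result was not tested.

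Snai1 and Zeb2 are zinc-finger repressors of epithelial genes in the epithelial-to-mesenchymal transition. Snai1 was at 16.7, 10.9 and 10.7 CPM in heterozygous and 8.72, 7.50 and 13.0 CPM in homozygous E9.0 libraries, and between 6.63 and 9.48 CPM in all E9.5 libraries. Its groups overlapped at both stages. The log2 differences were -0.37 ± 0.23 (adjusted p 0.499 by edgeR; -0.15 without heterozygous E9.0 replicate 1) and -0.11 ± 0.21 (adjusted p 0.908 by edgeR). Zeb2 was at 99.5, 110 and 104 CPM in heterozygous and 92.6, 90.8 and 82.3 CPM in homozygous E9.0 libraries, which did not overlap, and between 68.0 and 78.3 CPM in all E9.5 libraries. The log2 differences were -0.24 ± 0.07 (unadjusted p 0.00232, adjusted p 0.132 by edgeR) and -0.02 ± 0.06 (adjusted p 0.935 by edgeR). Zeb2os, which overlaps Zeb2 by 653 exon bases on the opposite strand, had 619 counts over the 12 libraries; the strand setting of the counting is not given in the sources used here.

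Ets1, an ETS-domain factor of cranial crest that is also a gene of endothelial cells, was the only member with a higher mean in homozygous libraries at E9.5, and it did not pass the test. It was at 91.0, 51.9 and 88.7 CPM in heterozygous and 119, 87.4 and 99.3 CPM in homozygous E9.5 libraries, with heterozygous replicate 2 far below the rest (0.40 ± 0.19, adjusted p 0.417 by edgeR; 0.18 without that library). At E9.0 it lay between 128 and 148 CPM in all libraries (-0.07 ± 0.19, adjusted p 0.908 by edgeR). The summed level of 10 endothelial genes, such as Cdh5 and Kdr, was 182 CPM in the same heterozygous replicate 2, 249 and 259 CPM in the other heterozygous E9.5 libraries and 330 to 368 CPM in the homozygous ones; at E9.0 it was 282 to 303 against 335 to 344 CPM. Of these 10 genes 7 rose at E9.5 and 0 at E9.0 by edgeR; Cdh5, Kdr, Tek and Flt1 were kept in all 6 fits without 1 library, Tie1 in 4, Egfl7 in 2 and Sox18 in 1. Kdr was lost with total counts only (adjusted p 0.0570 by edgeR) and with only the compared groups fitted (0.124). The part of endothelial cells in the level of Ets1 was not tested.

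**Figure D2:**
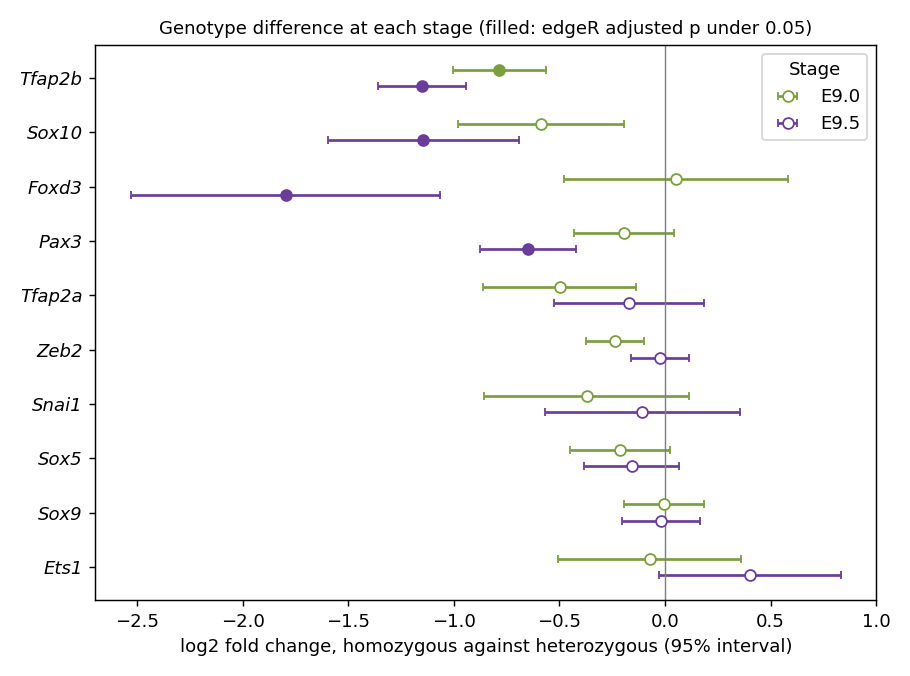
Log2 fold change of each crest factor, homozygous against heterozygous, at E9.0 and E9.5, with 95% intervals from the edgeR fit; filled symbols passed an adjusted p of 0.05. Filled symbols are Tfap2b at both stages and Sox10, Foxd3 and Pax3 at E9.5, all to the left of 0.

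Averaged over both stages, the same 4 members fell, where 1.14% of all tested genes fell. The averages were -0.97 ± 0.07 for Tfap2b (adjusted p 3.5e-06 by edgeR), -0.87 ± 0.14 for Sox10 (adjusted p 0.00423 by edgeR), -0.87 ± 0.21 for Foxd3 (adjusted p 0.0418 by edgeR) and -0.42 ± 0.08 for Pax3 (adjusted p 0.00659 by edgeR). The Foxd3 call was the least secure: leaving out 1 library at a time lost it 9 of 12 times, with adjusted p up to 0.121. It was also lost without the filter on low counts (adjusted p 0.0552 by edgeR) and with limma-voom (adjusted p 0.0530 by limma-voom). The averaged Pax3 call was lost with total counts only (adjusted p 0.143 by edgeR). Whether the genotype difference itself changed between stages was tested as an interaction. By edgeR 0 members passed, where 0.0675% of all tested genes did; 4 members had an unadjusted p under 0.05, where 8.6% of all genes did, limma-voom called 0 and DESeq2 called 1, Foxd3. Foxd3 changed by -1.85 ± 0.43 between stages (95% interval -2.76 to -0.94, unadjusted p 6.2e-04, adjusted p 0.180 by edgeR, DESeq2 adjusted p 0.00385). The other 3 were Pax3 (-0.45 ± 0.15), Tfap2b (-0.37 ± 0.14) and Zeb2 (0.21 ± 0.09), with edgeR adjusted p of 0.409, 0.492 and 0.532. A fall at E9.5 alone is therefore not shown for Sox10 or Pax3, and for Foxd3 it depends on the tool and the scaling, since with total counts only edgeR gave -2.08 (adjusted p 0.0096 by edgeR).

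Ratios of counts within a library do not depend on how libraries are scaled, so 3 pairs of members were set against each other. The pairs were chosen after the values had been seen, and with 3 libraries against 3 an exact permutation test cannot go below 0.1. Tfap2b counts over Tfap2a counts were 3.63, 3.07 and 3.61 in heterozygous E9.5 libraries and 1.93, 1.65 and 1.70 in homozygous ones, while at E9.0 the groups overlapped (1.13 to 1.98 and 1.15 to 1.63). The mean of this ratio went from 1.64 to 3.44 between the stages in heterozygous libraries and from 1.31 to 1.76 in homozygous ones. Sox10 over Sox9 was 0.790, 0.581 and 0.720 in heterozygous and 0.374, 0.548 and 0.486 in homozygous E9.0 libraries, and 0.214, 0.283 and 0.208 against 0.125, 0.111 and 0.0813 at E9.5. It was lower in every homozygous library of a stage than in the heterozygous ones. Foxd3 over Sox10 was nearly constant in heterozygous E9.0 libraries, at 0.242, 0.234 and 0.233, and higher in homozygous ones, at 0.385, 0.379 and 0.345. At E9.5 that order was not kept, with 0.390, 0.156 and 0.275 in heterozygous and 0.218, 0.143 and 0.104 in homozygous libraries, which overlapped. At E9.0, then, Foxd3 made up a larger share relative to Sox10 in homozygous libraries, where the Sox10 levels of the genotypes did not overlap and the Foxd3 levels did.

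**Figure D3:**
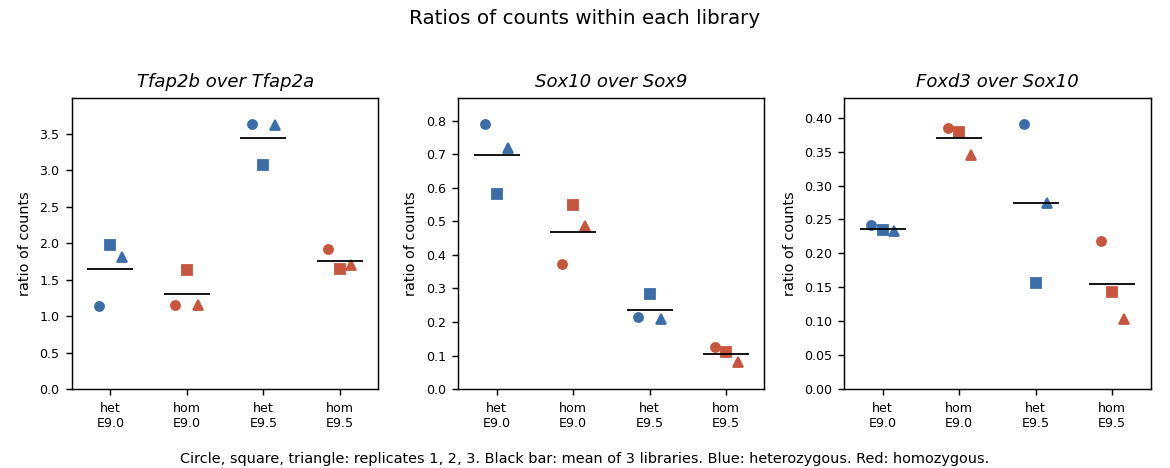
Ratio of counts within each library for Tfap2b over Tfap2a, Sox10 over Sox9 and Foxd3 over Sox10, by genotype and stage, with symbols for replicates and bars for means of 3. Foxd3 over Sox10 lies between 0.233 and 0.242 in heterozygous and between 0.345 and 0.385 in homozygous E9.0 libraries.

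From E9.0 to E9.5 Sox10, Foxd3, Tfap2a, Sox9 and Zeb2 fell in both genotypes by edgeR with TMM scaling. In heterozygous libraries 7 members fell, where 16% of all tested genes fell, and 0 rose, where 19.2% did. Sox10 fell 4.04-fold (-2.01 ± 0.19, adjusted p 4.2e-06 by edgeR) and Foxd3 3.65-fold (-1.87 ± 0.26, adjusted p 8.3e-05 by edgeR). Tfap2a (-0.95), Ets1 (-0.89), Snai1 (-0.63), Zeb2 (-0.52) and Sox9 (-0.43) fell by less. Tfap2b (0.16 ± 0.10, adjusted p 0.201 by edgeR), Pax3 (0.01 ± 0.11, adjusted p 0.943 by edgeR) and Sox5 (-0.18 ± 0.11, adjusted p 0.217 by edgeR) did not pass the test. In homozygous libraries 6 members fell, where 15.8% of all genes fell, and 0 rose, where 19.6% did. These were Foxd3 (-3.71 ± 0.32, adjusted p 7.7e-07 by edgeR), a 13.1-fold fall, Sox10 (-2.57 ± 0.21, adjusted p 1.1e-06 by edgeR), Tfap2a (-0.62), Sox9 (-0.45), Pax3 (-0.44) and Zeb2 (-0.31). The difference between the 2 stage effects is the interaction given above, so the fall of Pax3 in homozygous libraries alone is not shown to differ. Scaling by total counts put the median of all genes at 0.38 in heterozygous and 0.18 in homozygous libraries (0.0082 and 0.015 with TMM). With total counts 6 and 3 members passed the threshold. Sox10, Foxd3 and Tfap2a kept their fall in both genotypes and Ets1 in heterozygous ones, while Tfap2b (0.53) and Pax3 (0.38) then rose in heterozygous libraries. The heterozygous Snai1 call was lost without E9.0 replicate 1 or E9.5 replicate 1 or 2, and the homozygous Tfap2a call without E9.0 replicate 3 (-0.54, adjusted p 0.0595 by edgeR). The stage comparison and the genotype comparison share libraries. Side by side, Sox10 and Foxd3 were lower with stage and lower in E9.5 mutants, whereas Tfap2b was lower in mutants and, with TMM scaling, showed no detected stage change. Markers of other tissues moved with stage as well: all 6 heart muscle genes were higher at E9.5 in both genotypes (medians 3.68 and 3.47 on the log2 scale, sums of 64.3 to 329 CPM at E9.0 and 1823 to 2934 CPM at E9.5), as were all 7 erythroid genes (medians 1.95 and 1.88). The part of these tissues and of developmental timing in the stage changes was not tested.

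Levels of different genes are compared here only as CPM per kilobase of merged GENCODE M21 exons, a length that counts every isoform and so understates genes with many. In heterozygous E9.0 libraries Ets1 stood highest at 16.8 CPM per kilobase, followed by Sox9 at 12.4 and Sox10 at 11.8, whose ranges overlapped. Snai1 was at 7.86, Pax3 at 5.41, Zeb2 at 5.23, Tfap2b at 5.08, Tfap2a at 4.20, Foxd3 at 3.66 and Sox5 at 1.70 CPM per kilobase. Among neighbours in this order, the ranges of Ets1 and Sox9, of Snai1 and Pax3, and of Foxd3 and Sox5 did not overlap, and the others did. By E9.5 Sox10 was 7th of 10 in heterozygous libraries at 2.90 CPM per kilobase and 9th in homozygous ones at 1.30, with Foxd3 last in both at 0.997 and 0.281. Tfap2b was 3rd of 10 in heterozygous E9.5 libraries, at 5.71 CPM per kilobase, where its range overlapped those of Ets1 above it and Pax3 below it, and 6th in homozygous ones at 2.57, where it did not overlap its neighbours.

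Around the 10 members, a list of 23 other regulators of the crest and the neural plate border was examined, all of them tested. At E9.0, 0 passed the threshold by edgeR in either direction; at E9.5, 2 fell and 0 rose, and the median log2 differences were -0.08 and -0.15. Those that fell were Pax7 (-0.84 ± 0.17, adjusted p 0.0194 by edgeR), the paralog of Pax3, and Msx1 (-0.56 ± 0.07, adjusted p 4.95e-04 by edgeR), a homeobox factor of the border and the arches; the Msx1 call was lost with total counts only (adjusted p 0.0632 by edgeR). Pax7 was at 12.5, 18.7 and 12.6 CPM in heterozygous and 6.78, 9.06 and 8.74 CPM in homozygous E9.5 libraries, and was high in the same replicate 2 as Pax3 (-0.61 without it, adjusted p 0.0569 by edgeR); the call was also lost without homozygous replicate 1 or 3. Msx1 was at 50.8, 44.5 and 48.3 against 31.8, 32.3 and 33.5 CPM. Sox8, the remaining SoxE factor, was at 9.79, 4.90 and 9.84 CPM in heterozygous and 4.55, 4.82 and 4.09 CPM in homozygous E9.5 libraries (-0.86 ± 0.23, adjusted p 0.0733 by edgeR). Twist1, a regulator of crest mesenchyme, was at 102, 66.5 and 95.2 against 87.2, 62.6 and 65.8 CPM (-0.29 ± 0.15, adjusted p 0.456 by edgeR).

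Of 15 genes known to lie downstream of Sox10, Pax3 or Foxd3 in crest derivatives, 12 had enough counts to be tested. At E9.0, 1 fell and 0 rose, and at E9.5, 3 fell and 0 rose, with medians of -0.18 and -0.13. Cdh19, a cadherin of glial precursors, was at 3.74, 5.79 and 5.42 CPM in heterozygous and 0.83, 1.55 and 0.88 CPM in homozygous E9.0 libraries. Its E9.5 levels were 1.92, 1.12 and 1.67 against 0.34, 0.18 and 0.19 CPM (63, 38 and 47 against 10, 6 and 5 counts). It fell by 2.18 ± 0.29 at E9.0 (adjusted p 7.7e-04 by edgeR) and by 2.70 ± 0.36 at E9.5 (adjusted p 9.2e-04 by edgeR) on the log2 scale, a larger estimate than that of any of the 10 factors, and both calls were kept in all fits without 1 library. Fabp7, a fatty acid binding protein of glial progenitors and of the neural tube, fell from 22.1, 27.1 and 22.8 to 15.6, 14.8 and 16.8 CPM (-0.61 ± 0.13, adjusted p 0.0194 by edgeR), a call lost without heterozygous replicate 2 or any 1 of the homozygous replicates. Erbb3, the neuregulin receptor that Sox10 is known to activate, was at 46.0, 42.7 and 45.9 against 33.8, 36.6 and 38.4 CPM at E9.0 (-0.31 ± 0.11, adjusted p 0.256 by edgeR) and overlapped at E9.5 (-0.10 ± 0.11, adjusted p 0.793 by edgeR). Mitf, the pigment cell factor downstream of Sox10 and Pax3, was at 8.35, 8.60 and 7.35 against 10.4, 12.2 and 12.2 CPM at E9.5 and did not pass (0.52 ± 0.14, adjusted p 0.0724 by edgeR); it is also a gene of the retinal pigment epithelium.

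**Figure D4:**
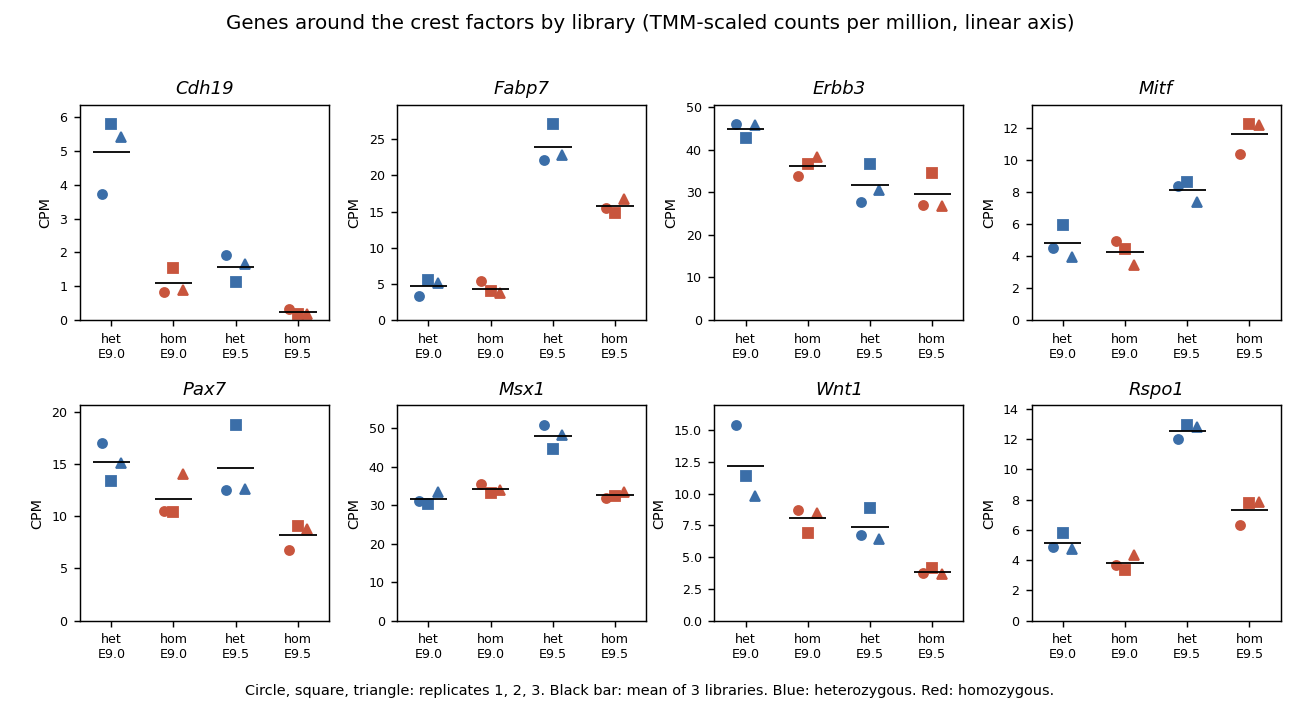
Level in every library, in CPM on a linear axis, of 4 genes downstream of the crest factors (Cdh19, Fabp7, Erbb3, Mitf), of the regulators Pax7 and Msx1, and of the dorsal neural tube genes Wnt1 and Rspo1; symbols are replicates and bars are means of 3 libraries. Cdh19 was lower in every homozygous library at both stages, whereas Msx1 was lower only at E9.5.

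Lists tied to the members that did not pass were also counted. Of 9 tested cartilage matrix genes that Sox9 drives with Sox5 and Sox6, 0 passed at E9.0 and 1 rose at E9.5, Col9a2 (0.62 ± 0.13, adjusted p 0.0210 by edgeR), a call kept in 1 of 6 fits without 1 library; the medians were 0.15 at both stages. Of 13 epithelial genes that Snai1 and Zeb2 are known to repress, all 13 had a log2 difference above 0 at both stages, with medians of 0.23 and 0.27, but 0 passed at E9.0 and only Epcam at E9.5 (0.31 ± 0.07, adjusted p 0.0400 by edgeR), which was kept in 2 of 6 fits without 1 library. Averaged over both stages, 4 rose by edgeR, Epcam (0.25), Krt8 (0.28), Krt19 (0.42) and Cldn4 (0.27), where 1.82% of all genes did. How these 4 averaged calls held under other settings is not reported here. The summed level of all 13 was 419 to 482 CPM in heterozygous and 521 to 557 CPM in homozygous E9.0 libraries, which did not overlap, and 377 to 438 against 442 to 565 CPM at E9.5. The part of epithelial cells in these levels was not tested, and neither was that of Snai1 or Zeb2. Of the 5 dorsal neural tube genes, where crest cells arise, 0 passed at E9.0 and 2 fell at E9.5, Wnt1 (-0.93 ± 0.17, adjusted p 0.00914 by edgeR) and Rspo1 (-0.78 ± 0.12, adjusted p 0.00243 by edgeR), and with TMM scaling all 5 were below 0 at both stages (medians -0.36 and -0.43). Wnt1 was at 6.77, 8.89 and 6.46 CPM in heterozygous and 3.78, 4.15 and 3.68 CPM in homozygous E9.5 libraries.

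Other cells that express crest factors were followed through their own markers. Of 14 tested genes of cranial ganglia and early neurons, 0 passed at E9.0, and at E9.5 Pou4f1 (-0.95) and Tubb3 (-0.69) fell, with a median of -0.0087 over the list; Pou4f1 was lost without homozygous replicate 1 or 2. Isl1, a factor of sensory ganglia, was at 12.2 to 24.3 CPM over the 12 libraries, while Prph, a marker of ganglion neurons, was at most 0.80 CPM. Of 6 neural tube progenitor genes 0 passed at either stage, with medians of 0.01 and -0.0093. Of 4 tested otic vesicle genes, a structure that also expresses Sox10, Sox9 and Tfap2a, 0 passed, and the sum of the 5 listed was 4.51 to 10.5 CPM in heterozygous and 5.78 to 7.22 CPM in homozygous E9.5 libraries. Of 7 somite genes, which mark another site of Pax3, 0 passed at E9.0 and Pax9, also a gene of the pharynx, rose at E9.5 (0.94 ± 0.18, adjusted p 0.0137 by edgeR; lost without homozygous replicate 1), with medians of 0.26 and 0.63. Of 12 facial mesenchyme genes, the fate of arch crest, 0 passed at E9.0, and Alx1, Barx1, Dlx1, Dlx2, Dlx6 and Lhx8 fell at E9.5 (median -1.08). Alx1 was kept in 1 of 6 and Dlx6 in 4 of 6 fits without 1 library, the others in all 6. The sum of the 12 was 165 CPM in heterozygous E9.5 replicate 2, close to the 157 to 180 CPM of the homozygous libraries and below the 298 and 281 CPM of the other heterozygous ones. Erythroid genes (0 of 7 passed at either stage, medians -0.12 and -0.19) and heart muscle genes (0 of 6 at E9.0, Nkx2-5 higher at E9.5 and kept in 0 of 6 fits without 1 library, medians 0.43 and 0.40) were present in every library, with erythroid sums of 537 to 1174 CPM at E9.0 and 2789 to 5200 CPM at E9.5. The part of these cell types in the levels of the crest factors was not tested.

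Finally, genes with the most similar profile over the 4 group means of log2 CPM were listed among 13084 genes with a mean of at least 1 CPM, by Euclidean distance after centring. Among the nearest to Sox10 were Kis2 (distance 0.35), 5730488B01Rik (0.58), Hes3 (0.63) and Plcg2 (0.70), where the median distance over all these genes was 2.47. Among the nearest to Foxd3 were 5730488B01Rik (0.82), Kis2 (0.94), Pax5 (1.14) and Hes3 (1.30), with a median of 3.08. Kis2, 5730488B01Rik and Hes3 were among the nearest of both Sox10 and Foxd3. Nearest to Tfap2b were Alx1 (0.18), L1cam (0.30), Gm1821 (0.33), BC024139 (0.34) and Draxin (0.37), with a median of 1.02. Mean L1cam was 6.44 and 3.33 CPM in heterozygous and homozygous E9.0 libraries and 5.45 and 2.97 CPM at E9.5. Among the members themselves, the closest pair was Snai1 and Zeb2, at a distance of 0.14.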

How the data were processed

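The authors deposited 1 table of raw counts per gene symbol for 12 libraries. Per the submitters' processing notes, cutadapt, STAR, featureCounts and MultiQC were used with the mm10 build; versions, annotation and strand setting are not given in the sources used here. All columns were matched to samples through the labels. The deposited counts went into edgeR 4.0.16 (R 4.3.3): filterByExpr kept 14810 of 24421 genes, TMM factors scaled the libraries, and a quasi-likelihood F test with robust dispersions was fitted in 1 model with a mean per group over all 12 libraries. P-values were adjusted by Benjamini-Hochberg over all 14810 genes, two-sided, with a threshold of 0.05. Standard errors are the log2 fold change over the square root of F, and 95% intervals use the fit's degrees of freedom. The script was tested on simulated data. The members, the lists of related and other cell type genes, and the contrasts were chosen with earlier results of these data known. Members are named always, other listed genes where called at either stage or needed to check a label; Sox8, Twist1, Erbb3, Mitf, Isl1 and Prph were named after their values were seen. Alternatives were RLE, upper-quartile and total-count scaling, TMM without Rn45s, DESeq2 1.42.0, limma-voom (limma 3.58.1), other filters, non-robust dispersions, a fit on the compared groups alone, a block for replicate numbers, omission of single libraries, and a threshold of 0.01. Gene lengths and overlaps came from GENCODE M21 (GRCm38), promoters from RefSeq GRCm38.p6. Counts per gene do not show splicing. Some genes counted in the lists are not reported here by name.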

Additional observations from a re-analysis of the deposited data

Results flagged for a closer look

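For 4 genes named beside the crest factors, the genotype difference itself changed between stages (interaction, edgeR adjusted p under 0.05). Msx1 differed by 0.11 at E9.0 and -0.56 at E9.5, a change of -0.67 (edgeR adjusted p 0.0198). Dlx1 went from -0.37 to -3.09, a change of -2.72 (edgeR adjusted p 0.00349). Barx1 went from 0.91 to -2.91, a change of -3.82 (edgeR adjusted p 0.0301). Lhx8 went from 0.79 to -3.09, a change of -3.88 (edgeR adjusted p 0.0181). None of the 4 genes passed the edgeR threshold at E9.0. A higher level in homozygous E9.0 libraries is therefore not shown for Msx1, Barx1 or Lhx8. All are log2 fold changes of homozygous against heterozygous libraries, 3 per group. None of the 10 crest factors passed this test by edgeR, in which 10 of 14810 genes did. Without homozygous E9.5 replicate 3 only 1 gene passed, so at most 1 of the 4 calls above was kept there. Without homozygous E9.5 replicate 2, or without heterozygous E9.0 replicate 2, 2 genes passed, so not all 4 were kept. Without heterozygous E9.5 replicate 2, 16 genes passed.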

How the results depend on the processing

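The number of members called stayed within 1.5 times the reported one in 111 values under alternative settings and moved further in 7. At E9.0 it was 0 with total counts only, and it was 1 in all 6 fits without 1 library. At E9.5 it was 2 with only the groups compared (Foxd3 at adjusted p 0.0624 and Pax3 at 0.0649), 2 at a threshold of 0.01, and 2 to 4 without 1 library, the lowest without homozygous replicate 2. For the interaction it was 1 with DESeq2 and 1 with total counts only, and for the stage effect in homozygous libraries 3 with total counts only. Values that changed sign were all of members that had not passed. At E9.0, Sox9 was 0.00 with RLE (5.5e-05), 0.024 with upper-quartile factors, 0.20 with total counts, 0.00147 with TMM without Rn45s, 0.00723 with a mean of at least 50 counts and 0.00665 with only the groups compared. Total counts also gave 0.12 for Ets1 and 5.9e-04 for Pax3 at E9.0, and 0.18 and 0.054 for the stage effect on Sox5 in heterozygous and homozygous libraries; limma-voom gave -0.00357 for that on Pax3 in heterozygous ones. Without 1 library, Foxd3 ranged from -0.10 to 0.22 and Sox9 from -0.078 to 0.084 at E9.0, Sox9 from -0.058 to 0.059, Snai1 from -0.26 to 0.019 and Zeb2 from -0.066 to 0.039 at E9.5, and the heterozygous stage effect on Pax3 from -0.17 to 0.10. Same-numbered samples share only a number: the correlations of their deviations were 0.03 to 0.11 and the labels tie the numbers to no litter or batch. With the replicate block the counts of members called were 1 at E9.0, 4 at E9.5, 4 for the average, 0 for the interaction, 7 and 6 for the stage effects, as in the fit without it, while the E9.5 calls of Alx1 (adjusted p 0.0634), Epcam (0.0598) and Nkx2-5 (0.0683) were lost. The depth limits Foxd3 in homozygous E9.5 libraries, which rested on 8 to 32 counts. Over all tested genes, total counts called 78 genes at E9.0, 75 of them higher, and 123 at E9.5, 58 higher. With TMM these were 87 (64 higher) and 280 (176 higher). DESeq2 called 216 and 448, and 76 for the interaction against 10 by edgeR. In edgeR fits without 1 library the counts were 38 to 86 at E9.0, 133 to 252 at E9.5 and 1 to 16 for the interaction. The shares of all genes printed beside the member counts rest on the full fit. Among the other named genes, E9.5 calls of Msx1, Fabp7, Alx1, Epcam, Egfl7, Tie1, Kdr and Col9a2 were lost with total counts only, and those of Pax7, Pax9, Pou4f1, Alx1, Epcam, Egfl7, Sox18, Tie1 and Kdr with only the groups compared.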
